A study of Mus musculus with 6 samples.

Results

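Expression of 10 genes of TGF-beta and activin signalling was followed in the colon of Islr knockout and control mice: the ligand genes Tgfb1, Tgfb2, Tgfb3 and Inhba, the latency genes Ltbp1 and Ltbp2, the receptor genes Tgfbr1, Tgfbr2 and Tgfbr3, and the feedback inhibitor gene Smad7. They were chosen by name, with earlier results of these data known, and are 10 of the 23458 genes that could be named on the array. Every probe whose RefSeq accession led to 1 of the 10 symbols was taken, which gave 15 of the 56605 different probes on the array. The samples were colon from 6 male mice, 3 labelled as control and 3 as Islr knockout, with 1 single-colour Agilent array per animal. Per the source name, all 6 had 3.5% dextran sulfate sodium (DSS), a polysaccharide that injures the colonic lining, in their water for 5 days and then recovered for 1 day. A separate treatment field of the labels says that there was none. The design text says that the samples were separated by flow into TRIzol but names no cell population. The strain, the age, the knockout allele and the cells in which it acts are not given in the sources used here, and neither is whether the control mice were littermates.

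TGF-beta ligands are made as latent complexes, tethered to the extracellular matrix by latent TGF-beta binding proteins such as the product of Ltbp1, and act once released. Activin A, a dimer of the Inhba product, and the TGF-betas bind pairs of type I and type II serine/threonine kinase receptors, which phosphorylate Smad2 and Smad3. In the gut these ligands act on fibroblasts, epithelium and immune cells, and they are known for restraining inflammation and for driving matrix production during wound repair. The protein made from Islr is secreted, carries leucine-rich repeats and comes mainly from stromal cells.

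Inhba and Tgfb1 were the members called lower in the knockout colon, Tgfb1 close to the threshold of the test. Inhba, which encodes the activin beta A chain, was 10.8-fold lower at its brighter probe when spots marked as outliers by the scanner software were kept, and Tgfb1, which encodes the TGF-beta ligand abundant in immune cells and platelets, was 2.81-fold lower at its brighter probe. Tgfb2, Tgfb3, the Ltbp genes and the receptor genes had smaller differences that did not pass the test. Several of them still had a probe with every knockout below every control. Smad7 did not differ detectably, and none of the 10 genes was called higher.

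The 250 bases before the annotated starts of 3 ligand genes are shown. They set the promoters of the pair called lower beside that of a ligand gene that did not pass the test. The sequences were taken from RefSeq's annotation of mouse assembly GRCm38.p6, whose table held 9 promoters of 7 of the 10 genes. Tgfb3, Tgfbr3 and Smad7 had none. Inhba lies at chr13:16011601-16011850 on the plus strand, Tgfb1 at chr7:25686752-25687001 on the plus strand and Tgfb2 at chr1:186705990-186706239 on the minus strand, and each sequence reads 5′ to 3′ towards the start. Capitals mark TATAAA in Inhba, and CAGACA and then TATAAA in Tgfb2.
Inhba: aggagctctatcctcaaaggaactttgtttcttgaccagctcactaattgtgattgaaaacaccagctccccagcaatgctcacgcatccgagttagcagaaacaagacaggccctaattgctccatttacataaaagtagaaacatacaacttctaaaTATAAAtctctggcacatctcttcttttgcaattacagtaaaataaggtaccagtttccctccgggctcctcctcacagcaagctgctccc
Tgfb1: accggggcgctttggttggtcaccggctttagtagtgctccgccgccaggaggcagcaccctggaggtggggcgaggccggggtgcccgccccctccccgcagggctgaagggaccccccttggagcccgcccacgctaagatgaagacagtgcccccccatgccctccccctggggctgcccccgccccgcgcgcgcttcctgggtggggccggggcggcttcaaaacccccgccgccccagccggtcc
Tgfb2: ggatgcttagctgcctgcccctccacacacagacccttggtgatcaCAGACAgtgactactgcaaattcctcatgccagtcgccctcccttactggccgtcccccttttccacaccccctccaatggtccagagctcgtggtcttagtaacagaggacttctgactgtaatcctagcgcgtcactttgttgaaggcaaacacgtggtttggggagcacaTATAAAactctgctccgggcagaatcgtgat
Windows of 300 bases, from 250 before to 50 after the start, were searched on both strands for the Smad palindrome GTCTAGAC, the CAGA box CAGACA, the AP-1 site TGANTCA, the TEAD site GGAATG and, added later, the TATA box TATAAA; none of these letter strings contains another. The Inhba window held TATAAA with its first base at position -91 from the start and none of the other 4. The Tgfb1 window held none of the 5, and 77.0% of its bases were G or C, against 47.7% for Inhba, 54.3% for Tgfb2 and a median of 52.7% over the table. The Tgfb2 window held CAGACA at -204 and TATAAA at -31. CAGACA was present in 3 of the 9 windows, those of Tgfb2, of the second Tgfbr1 start and of the second Ltbp1 start, and in 21.04% of the 32851 promoters of the table. Over that table GTCTAGAC was found in 0.21%, TGANTCA in 7.81%, GGAATG in 14.66% and TATAAA in 13.62% of windows.

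Values below are log2 signals from which the array's own 75th percentile was subtracted, so 0 is that percentile and no probe's level can be set against another probe's. They are given in the order of control replicates 1, 2 and 3 and then knockout replicates 1, 2 and 3. A spot marked as an outlier counts as missing in the reported fit, and a second fit kept such spots, because such spots left 5 member probes without a test. A probe was called when limma's adjusted p over all tested probes was under 0.05. The labels do not say whether the 6 mice came from separate litters or cages, and p-values measure the spread between these samples. The probe of Islr itself, which checks the genotype labels, fell by 2.44 (SE 0.21, adjusted p = 0.0171 in limma), and every knockout lay below every control; without knockout replicate 3 its adjusted p was 0.0580, and without control replicate 2 or 3 it had too few usable values. The 75th percentile of the signal was 6353 to 7110.5 intensity units on control arrays and 4910.5 to 5820.0 on knockout arrays. Controls all lay in 1 row of the slide and knockouts in the other, so genotype and slide row cannot be told apart. All samples were bulk tissue or bulk sorted material, in which fewer cells of a type and less RNA per cell cannot be told apart.

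Of the 15 probes of the 10 genes, 9 were tested, covering 6 genes. All 9 had a lower mean in the knockouts, 2 were called lower and 0 called higher. The dimmer Inhba probe, 1 of the 2 called, and the dimmer Tgfb1 probe passed the filter on background through the controls alone. The 10 genes were also chosen with earlier results of these data known. For both reasons these counts describe the probes and lend no support. Over all 35351 tested probes, 2.42% were called lower and 1.55% higher, and 50% had a lower mean. Among 8 of the tested member probes with 6 usable values, 6 had every knockout below every control, against 18% of all such probes. With outlier spots kept, 14 probes covering all 10 genes were tested, of which 13 had a lower mean and 4 were called lower, against 2.89% of 40172 probes, and 10 had every knockout below every control, against 17.6%. A gene's brightest tested probe stood for it, and the median log2 fold change was -0.77 over 6 genes, also with Inhba at the bound of its dimmer probe, or -0.61 over 10 genes with outlier spots kept, where that of all tested probes was 0.00 and 0.01.

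**Figure D1:**
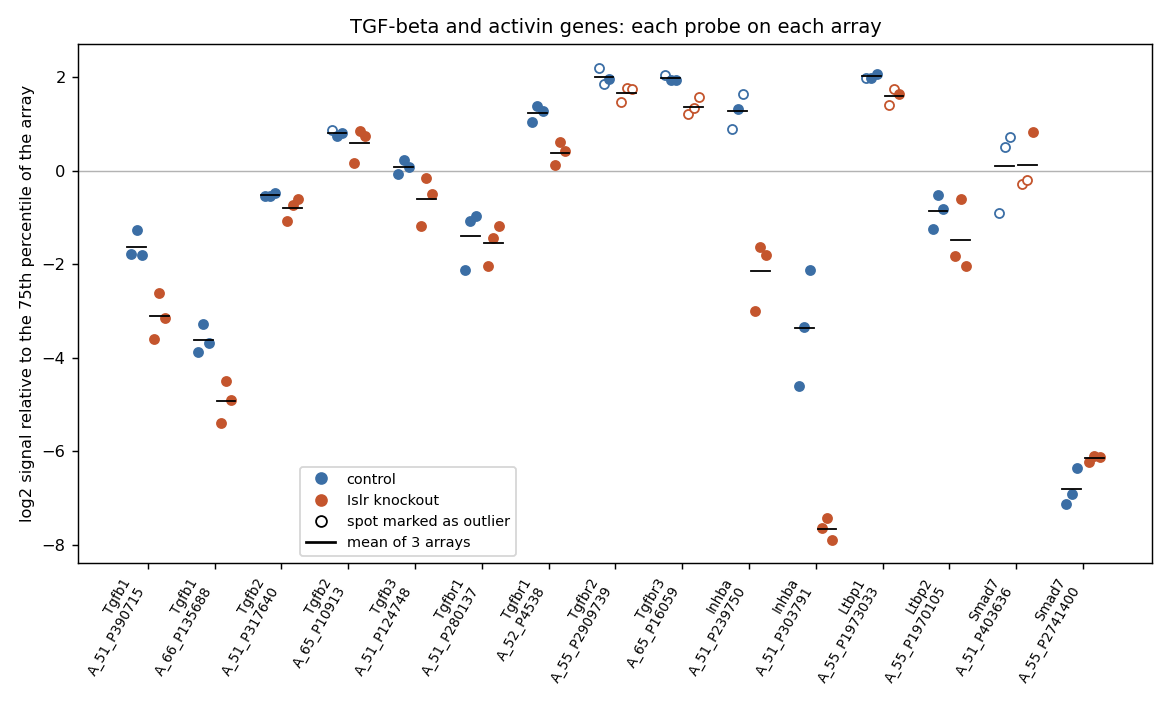
Signal at each of the 15 probes (x axis) on each of the 6 arrays, on a log2 scale whose 0 is the 75th percentile of that array. Blue points are controls, orange points Islr knockouts, open points spots marked as outliers, and black bars means of 3 arrays. The gap between genotypes is widest at the 2 Inhba probes, and the 2 Tgfb1 probes also separate without overlap. The dimmer probe of each gene entered the test through the controls alone. The gap at the dimmer Inhba probe is not a measured size.

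Among the ligand genes, Inhba had the largest difference. At its brighter probe, A_51_P239750, the values were 0.90, 1.33 and 1.63 in controls and -2.99, -1.63 and -1.81 in knockouts, that is, deposited signals of 11817, 17857 and 20247 intensity units against 616, 1877 and 1647. All 3 knockouts lay far below all 3 controls, and knockout replicate 1 was lowest. The spots of control replicates 1 and 3 were marked as outliers, so the probe could not be tested without them. With outlier spots kept, controls averaged 1.28 ± 0.37 and knockouts -2.15 ± 0.74 (mean ± SD over 3 arrays), and the probe fell by 3.43 (SE 0.39, adjusted p = 0.0177 in limma). An exact two-sided permutation test of 3 against 3 arrays gave p = 0.1, the smallest it allows. In fits with 1 array left out, chosen after seeing the data, the difference ranged from -3.69 to -3.01, and the adjusted p was 0.0535 or 0.0562 when control replicate 2 or 3 was missing and 0.0549 when knockout replicate 3 was missing.

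The second Inhba probe, A_51_P303791, read -4.60, -3.35 and -2.13 in controls and -7.64, -7.43 and -7.89 in knockouts. It was well above background on all 3 control arrays and on 0 of the knockout arrays, so it entered the test through the controls alone and only a bound can be given. Its signal was at least 4.42-fold higher in controls, where the bound sets the control mean against the lowest signals that were well above background on the knockout arrays. The reported fit called it lower with an adjusted p of 0.0275 in limma; the size of the difference is not given beyond that bound. The call was lost without control replicate 2 (adjusted p = 0.0762), knockout replicate 1 (0.0670) or knockout replicate 3 (0.0776). Its knockouts lay below its controls, but a probe that entered in this way lends no support to the brighter one.

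Tgfb1 was the other member called lower. Its brighter probe, A_51_P390715, read -1.78, -1.27 and -1.81 in controls and -3.59, -2.61 and -3.14 in knockouts. No overlap was seen, and the highest knockout, replicate 2, lay well below the lowest control. Controls averaged -1.62 ± 0.30 and knockouts -3.11 ± 0.49 (mean ± SD over 3 arrays), and the probe fell by 1.49 (SE 0.29, adjusted p = 0.0468 in limma). That p lies close to the threshold: it was 0.0389 without knockout replicate 2 and 0.0536 to 0.131 when any of the other 5 arrays was left out, and the difference then ranged from -1.74 to -1.25. The dimmer probe, A_66_P135688, read -3.87, -3.28 and -3.69 in controls and -5.39, -4.50 and -4.90 in knockouts, a difference of -1.31 (SE 0.27, adjusted p = 0.0524 in limma). It was well above background on 2 of the 3 knockout arrays, so it entered the test through the controls alone, and normexp background correction gave -0.94. With outlier spots kept elsewhere on the arrays its adjusted p was 0.0489. At both Tgfb1 probes every knockout lay below every control, but the dimmer one, tested through the controls alone, lends no support to the brighter.

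Tgfb2, which encodes a TGF-beta isoform prominent in development and in epithelial tissues, showed little difference. Its brighter probe, A_65_P10913, read 0.86, 0.74 and 0.80 in controls, the first an outlier spot, and 0.16, 0.85 and 0.73 in knockouts. Both groups overlapped, and knockout replicate 1 alone lay well below the rest. The difference was -0.19 (SE 0.26, adjusted p = 0.680 in limma), and it was 0.024 without knockout replicate 1. The dimmer probe, A_51_P317640, read -0.54, -0.53 and -0.47 in controls and -1.07, -0.72 and -0.61 in knockouts. There the knockouts all lay below the controls, by a narrow margin, and the difference was -0.29 (SE 0.17, adjusted p = 0.326 in limma).

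Tgfb3, which encodes the third mammalian TGF-beta isoform, was measured by 1 probe, A_51_P124748. It read -0.08, 0.24 and 0.08 in controls and -1.19, -0.15 and -0.51 in knockouts. Both groups came close, control replicate 1 lying just above knockout replicate 2, but did not overlap. The difference was -0.69 (SE 0.28, adjusted p = 0.173 in limma) and did not pass the test.

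The change of each ligand relative to another was set out within arrays, from the brighter probes with outlier spots kept. Only the change of such a difference is given, since its level depends on the probes. Relative to Inhba, the knockouts had values higher by 3.21 for Tgfb2, 2.74 for Tgfb3 and 1.94 for Tgfb1, and no control reached any knockout in these 3 pairs. Tgfb1 was lower in the knockouts by 1.27 relative to Tgfb2 and by 0.80 relative to Tgfb3, again with no overlap. Tgfb2 was higher by 0.48 relative to Tgfb3. Each of these 6 ligand pairs gave an exact two-sided permutation p of 0.1, the smallest possible, or 0.129 after Benjamini-Hochberg adjustment over 9 pairs of ligands and of receptors. With 3 arrays per group, this permutation test cannot go below 0.1.

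**Figure D2:**
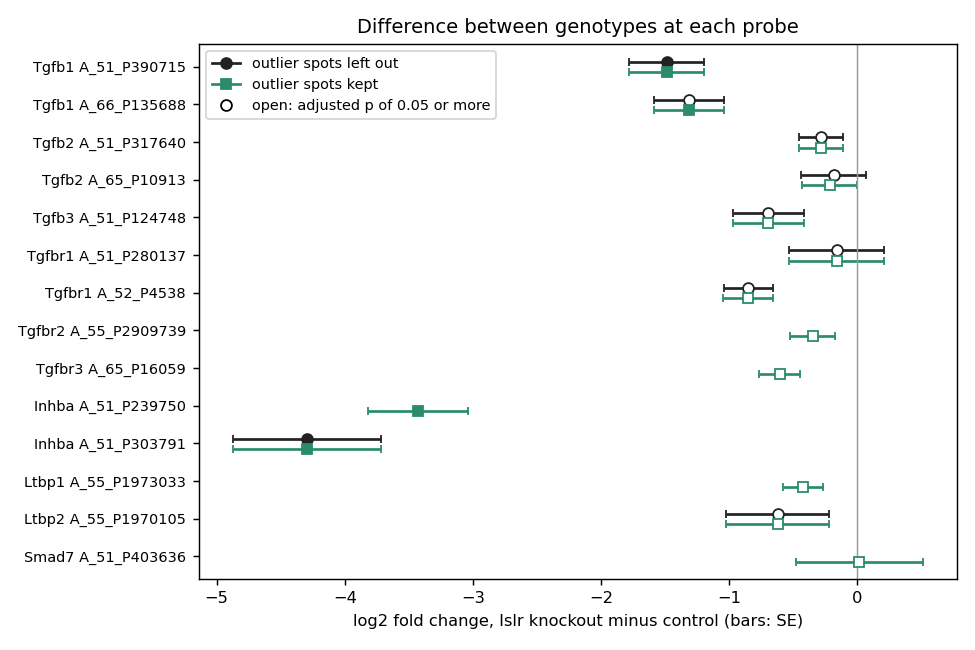
Log2 fold change, Islr knockout minus control, at each tested probe of the 10 genes, with bars of 1 SE from limma. Circles leave outlier spots out and squares keep them, and filled symbols had an adjusted p under 0.05; filled symbols stand at the probes of Inhba and Tgfb1, and every other symbol is open. The dimmer Inhba probe was not well above background in any knockout, so its plotted value is not a measured size.

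The Ltbp genes encode matrix proteins of the fibrillin superfamily, of which that of Ltbp1 holds the TGF-beta precursor in the extracellular space. Ltbp1 (A_55_P1973033) read 1.99, 1.99 and 2.07 in controls and 1.40, 1.74 and 1.63 in knockouts, with outlier spots in control replicate 1 and knockout replicates 1 and 2. The knockouts lay below the controls without overlap, but with outlier spots kept the difference of -0.42 (SE 0.16) had an adjusted p of 0.141 in limma. Ltbp2 (A_55_P1970105), whose product binds fibrillin rather than TGF-beta, read -1.24, -0.52 and -0.83 in controls and -1.82, -0.60 and -2.03 in knockouts. Knockout replicate 2 lay among the controls, and the difference of -0.62 (SE 0.40) had an adjusted p of 0.365 in limma.

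Of the receptor genes, Tgfbr1, which encodes the type I kinase receptor, had probes that disagreed. At the brighter one, A_52_P4538, controls read 1.04, 1.38 and 1.29 and knockouts 0.11, 0.61 and 0.42. The groups were well apart, and the difference of -0.85 (SE 0.19) had an adjusted p of 0.0579 in limma, just outside the threshold. The dimmer probe, A_51_P280137, read -2.12, -1.07 and -0.97 in controls and -2.03, -1.43 and -1.18 in knockouts, with wide overlap and a difference of -0.16 (SE 0.37, adjusted p = 0.809 in limma). Its sign was not stable, being 0.048 once control replicate 3 was left out and 0.079 once knockout replicate 1 was. The sources used here give no probe sequences, and which Tgfbr1 transcripts each probe reads was not tested.

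Tgfbr2 encodes the type II receptor that binds ligand first, and its single probe, A_55_P2909739, could be tested only with outlier spots kept, since all but 1 of its spots were marked. It read 2.20, 1.86 and 1.97 in controls and 1.46, 1.78 and 1.75 in knockouts, which lay lower by a small margin, with a difference of -0.35 (SE 0.17, adjusted p = 0.248 in limma). Tgfbr3 encodes betaglycan, a co-receptor that presents TGF-beta2 and also binds inhibin. Its probe, A_65_P16059, read 2.04, 1.94 and 1.95 in controls and 1.20, 1.33 and 1.57 in knockouts, with 4 of the 6 spots marked. The tight controls lay above every knockout, and with outlier spots kept the difference was -0.61 (SE 0.16, adjusted p = 0.0734 in limma). Within arrays, Tgfbr1 relative to Tgfbr2 changed by -0.50 and relative to Tgfbr3 by -0.25, both with overlapping groups (exact permutation p = 0.2, 0.2 after adjustment over the 9 pairs). Tgfbr2 relative to Tgfbr3 was higher in the knockouts by 0.26 without overlap (exact permutation p = 0.1, adjusted 0.129).

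Smad7 encodes an inhibitory Smad that is induced by TGF-beta and blocks its receptors, so its transcript is often read as a measure of pathway activity. Its probe A_51_P403636 read -0.91, 0.50 and 0.71 in controls and -0.28, -0.19 and 0.82 in knockouts. Both groups overlapped widely, control replicate 1 was the lowest array and knockout replicate 3 the highest. All spots but that of knockout replicate 3 were marked as outliers, and with them kept the difference was 0.02 (SE 0.50, adjusted p = 0.986 in limma). Leaving out control replicate 1 gave -0.49, and leaving out knockout replicate 3 gave -0.34. The second probe, A_55_P2741400, was not well above background on any array, and no difference is given for it. With a standard error this wide, these arrays could not show a moderate difference in Smad7.

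The other genes of the pathway were described from lists of 67 genes by role, of which 57 had a tested probe. These lists, and the marker lists below, were chosen with earlier results of these data known. By the brightest probe, 4 of the 57 were called lower and 0 higher, 39 had a lower mean, and their median log2 fold change was -0.18. Over all tested probes 2.42% were called lower, 1.55% were called higher and 50% had a lower mean, and the median was 0.00. With outlier spots kept, 62 were tested, 41 had a lower mean and 5 were called lower. In the sentences that follow, values by array keep outlier spots, and differences leave them out unless stated.

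Among other ligands of the family, 1 of 5 tested genes was called. Inhbb encodes the activin beta B chain, which pairs with itself or with the Inhba product. It read 0.86, 0.83 and 0.62 in controls and -2.06, -1.13 and -1.39 in knockouts, and it fell by 2.25 (SE 0.31, adjusted p = 0.0339 in limma). Every knockout lay below every control, as at the brighter Inhba probe. The call was lost without knockout replicate 1 (adjusted p = 0.0502 in limma) or 3 (0.0830). The Inhbb probe could not be tested without control replicate 2 or 3. Inha, which encodes the alpha chain of the inhibins, differed by -0.66 (adjusted p = 0.241 in limma) and did not pass. Neither did Inhbe, tested through the controls alone, at -0.51 (0.280), nor Gdf11 at 0.51 (0.287). Gdf11 had every knockout above every control.

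Of 11 genes of latency and activation, 7 were tested and 1 was called; 6 means were lower, and the median was -1.19. Lrrc32 encodes GARP, which holds latent TGF-beta on the surface of regulatory T cells, platelets and some stromal cells. It read 0.31, 0.62 and 0.77 in controls and -2.64, -1.11 and -1.03 in knockouts without overlap, and it fell by 2.16 (SE 0.44, adjusted p = 0.0496 in limma). That p was 0.0447 without knockout replicate 1 and 0.0548 to 0.132 without any other array. Thbs1, whose product thrombospondin-1 can activate latent TGF-beta, differed by -2.36 (adjusted p = 0.102), by -1.66 without knockout replicate 1 and by -1.24 at the probe that was brightest with outlier spots kept, and Fbn1, which encodes the fibrillin-1 to which Ltbp proteins attach, by -1.23 (0.0686). Itgb6, the epithelial subunit of an integrin that activates TGF-beta, was the gene with a higher mean, by 2.21 (adjusted p = 0.114 in limma). The difference was 1.5 without control replicate 2, and Itgb6 did not pass either. With outlier spots kept, its knockouts all lay above its controls.

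Of 8 tested genes of other receptors and co-receptors, 0 were called, 3 had a lower mean and the median was 0.09. Eng encodes endoglin, an endothelial co-receptor, and differed by -1.58 (SE 0.37, adjusted p = 0.0636 in limma), with controls of 0.46, 0.73 and 0.60 against knockouts of -1.82, -0.31 and -0.81. Acvrl1, the type I receptor gene of endothelium, differed by -0.57 at its brightest probe (adjusted p = 0.127 in limma), with knockouts below all controls as at Eng. Its dimmer probe A_52_P279329 differed by -1.34 (SE 0.32, adjusted p = 0.0644 in limma) and did not pass either. Acvr1c, a type I receptor gene, was well above background on 1 of the 3 control arrays and entered the test through the knockouts alone; its fitted difference of 1.05 (0.567) was 2.30 without control replicate 1 and 0.08 without control replicate 2.

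Of 8 genes of Smads and signal transducers, all were tested, 0 were called by their brightest probe, and the median was -0.01. Smad3, the receptor-activated Smad that binds many target promoters, read 0.18, 0.40 and 0.45 in controls and 0.21, 0.16 and 0.65 in knockouts, a difference of 0.00 (SE 0.19, adjusted p = 0.997 in limma). Smad4, which encodes the common partner of the receptor-activated Smads, had 5 tested probes, all with a higher mean. Its brightest differed by 0.34 (adjusted p = 0.277), while its dimmer probes A_55_P2745195 (0.82, SE 0.16, adjusted p = 0.0446 in limma) and A_55_P2745667 (1.04, SE 0.20, adjusted p = 0.0466) were called higher. The probes of Smad4 thus gave different calls. Tab1, a partner of the kinase encoded by Map3k7, differed by 0.32 (0.345), and Map3k7 by -0.23 (0.428).

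Of 14 tested genes of inhibitors and feedback, 1 was called, 11 had a lower mean and the median was -0.25. Smad6, the inhibitory Smad that acts mainly on BMP receptors, read -1.57, -1.67 and -2.10 in controls and -2.87, -2.93 and -2.78 in knockouts. Knockout values were tightly grouped below those of controls, and Smad6 fell by 1.08 (SE 0.19, adjusted p = 0.0390 in limma). That p was 0.0485 without control replicate 1 and 0.0658 to 0.124 without any other array. Fst encodes follistatin, the secreted binder of activin, and read -0.72, -0.54 and -0.55 in controls and -4.74, -2.40 and -2.84 in knockouts. Its difference of -2.72 (SE 0.57) stood at an adjusted p of 0.0527 in limma, and of 0.0490 with outlier spots kept. Without knockout replicate 1 the difference was -2.01 (adjusted p = 0.0384). Tgif1, a repressor of Smad targets, differed by -0.72 at its brightest probe (adjusted p = 0.0587) and fell by 1.21 at the dimmer probe A_52_P257590 (SE 0.20, adjusted p = 0.0363 in limma). Bambi, a decoy receptor gene, differed by -0.83 (0.209).

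Of 18 genes commonly used as TGF-beta targets, 15 were tested, 1 was called, 10 had a lower mean and the median was -0.16. The median over all tested probes was 0.00. Single targets ranged from -4.27 to 0.96, so their median does not stand for each of them. Lox encodes lysyl oxidase, which cross-links collagen. It read 1.09, 0.78 and 0.42 in controls and -3.21, -1.90 and -2.06 in knockouts, and it fell by 3.16 (SE 0.38, adjusted p = 0.0236 in limma). At a second Lox probe, A_66_P138929, the fitted difference was -4.28 (SE 0.76, adjusted p = 0.0468 in limma) from 2 usable control values; it was well above background on 2 of the 3 knockout arrays and so was tested through the controls alone. The Lox call was lost without control replicate 2 (adjusted p = 0.0671), control replicate 3 (0.0568) or knockout replicate 3 (0.0565). Il11, a cytokine gene of activated fibroblasts, differed by -4.27 (adjusted p = 0.124) from 2 usable values per group, by -3.49 with outlier spots kept and by -2.99 with array weights. With outlier spots kept, it had knockout replicate 1 far below the others at -3.62, against 0.22 and 0.26. Cdkn2b, a cell cycle inhibitor gene, differed by 0.96 (0.376). Acta2 and Tagln, targets that smooth muscle also expresses, differed by 0.34 (adjusted p = 0.228 in limma) and 0.36 (0.213). Every knockout lay above every control at both genes.

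**Figure D3:**
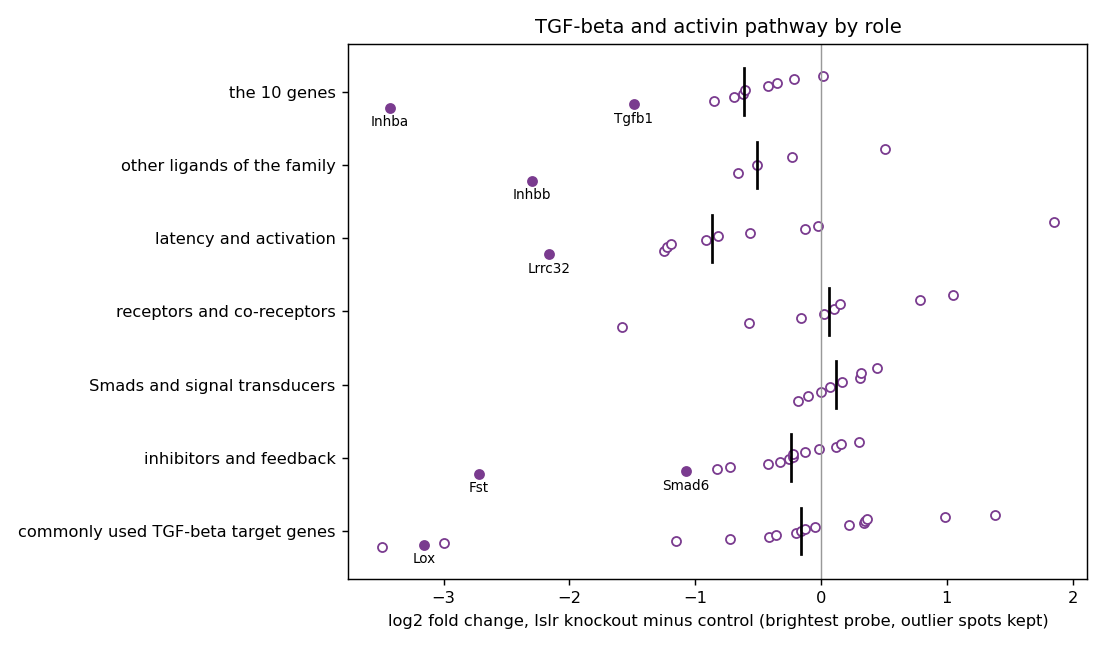
Log2 fold change, Islr knockout minus control, for each tested gene by role, at its brightest probe with outlier spots kept. Filled points had an adjusted p under 0.05 and are named, and black bars are medians; the filled points all lie to the left of 0, at Inhba, Tgfb1, Inhbb, Lrrc32, Fst, Smad6 and Lox, while the medians of receptors, transducers and targets lie near 0.

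Marker genes of several cell types were also lower or higher in the knockouts, and their part in the differences of Inhba, Tgfb1 and the other members was not tested. Values here keep outlier spots, and a sum is that of linear signals relative to the 75th percentile over the tested genes of a list. Fibroblast markers had a lower mean at 9 of 9 genes, with Pdgfrb and Twist2 called, a median of -0.97 and sums of 30.5 to 34.6 in controls and 16.5 to 23.2 in knockouts. Endothelial markers had a lower mean at 6 of 6 genes, 0 called, with sums of 5.63 to 7.11 and 1.93 to 4.23. Neutrophil markers had a lower mean at 5 of 8 genes, S100a8, S100a9, Retnlg, Cxcr2 and Ltf, all called. The mean was higher at 3, Mmp9, which was called, Csf3r and Ly6g. Sums over the neutrophil list were 23.8 to 25.4 in controls and 17.3 to 19.4 in knockouts. Over all tested probes 2.89% were called lower. Platelet markers, relevant to Tgfb1 and Lrrc32, had a lower mean at 3 of 3 tested genes, with Ppbp called and sums of 1.55 to 4.15 and 0.55 to 0.97.

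Sums of macrophage and monocyte markers overlapped between the genotypes, at 26.1 to 33.4 in controls and 28.4 to 33.4 in knockouts. Single genes of that list ranged from -1.57 to 0.49 around a median of -0.60, lower at 5 of 8 and 0 called. Overlapping sums therefore do not show that these markers were unchanged. T cell markers, another source of Tgfb1, also had overlapping sums, at 2.56 to 4.48 and 2.87 to 3.66, a median of -0.19 and 0 of 7 called. Sums of mesothelial markers overlapped as well, at 1.41 to 1.75 and 0.64 to 1.71, with a median of -0.42 and 0 of 4 called. Epithelial markers had a higher mean at 9 of 9 genes, 0 called, with sums of 18.7 to 58.3 and 71.2 to 92.9, and smooth muscle markers at 8 of 8 genes, 0 called, with sums of 47.6 to 59.1 and 64.9 to 76.2. Markers well above background on all 6 arrays were 9 of 9 for epithelium, 8 of 8 for smooth muscle, 8 of 9 for fibroblasts and 8 of 8 for macrophages. They were 7 of 8 for neutrophils, 7 of 7 for T cells, 6 of 6 for endothelium, 4 of 4 for mesothelium and only 2 of 4 for platelets. Each tested marker was well above background on at least 1 array. Markers of several tissue compartments were thus present in samples that the design text calls flow separated. Acta2 and Tagln stand in both the smooth muscle and the target list, and Dcn in both the fibroblast and the inhibitor list.

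The probes most like the called members over the 6 arrays were sought among 18881 tested probes of named genes with 6 usable values. For Inhba (A_51_P303791) they were those of Fam13b (Pearson r 0.995), Unc45a (0.993) and Bdkrb2 (0.990), and for Tgfb1 those of Cep97 (0.999), Gm10791 (0.998) and Iqce (0.998). These correlations describe 6 points that split by genotype, share their arrays and were picked as the highest, so they carry no test. The Inhba probe matched here was well above background on 0 of the knockout arrays, so the size of its step is not measured. Bdkrb2 read -5.02, -3.96 and -3.65 in controls and -7.63, -7.87 and -7.88 in knockouts, whereas Fam13b differed by -0.21. Whether Bdkrb2 stood above background in knockouts is not given here, and its step is not compared in size with that of Inhba. Among the matched genes, a high correlation thus did not need a large difference, as at Fam13b.

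**Figure D4:**
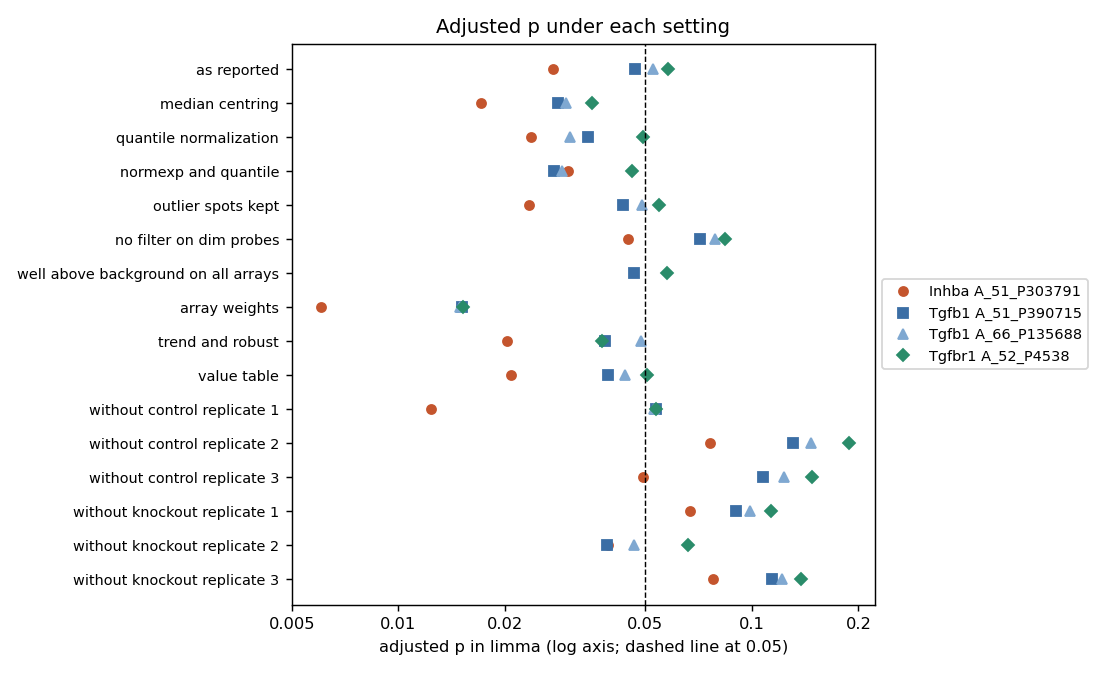
Adjusted p in limma (log axis) for the 4 member probes nearest the threshold under each processing alternative and with each array left out; the dashed line marks 0.05. The Inhba probe shown is the dimmer one, which entered the test through the controls alone. It lies to the left of the line in all settings on 6 arrays in which it was tested. The brighter Inhba probe, testable only with outlier spots kept, is not shown. All 4 probes lie to the right of the line when control replicate 2, knockout replicate 1 or knockout replicate 3 is left out.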

How the data were processed

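Whole-genome expression was measured in 6 colon samples on 1-colour Agilent arrays. Per the file headers, Feature Extraction 11.5.1.1 read array design 074809; the submitters' processing notes name version 10.7. The labels name the dye Cy3, while the files hold the red channel alone, which was used. The deposited processed signals are intensities on a linear scale, background-subtracted by that software and not scaled between arrays, per the file headers. An alternative used the value table of the series, which holds deposited intensities too.

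Signals were converted to log2, and each array's 75th percentile over non-control spots was subtracted. Spots marked as non-uniform or population outliers (3.26% to 16.0% of an array) were treated as missing, and spots of a probe were averaged. The share of such spots was highest on knockout replicate 1, followed by control replicate 1 (13.59%). Knockout replicate 1 also had the lowest 75th percentile (4910.5) and the lowest share of spots well above background (69.36%). A probe was tested if well above background on all 3 arrays of a group, with at least 2 usable values per group. limma 3.58.1 in R 4.3.3 (lmFit, eBayes, two-sided) had genotype as its only term, with Benjamini-Hochberg adjustment over 35351 probes at 5%. Single values were tested by exact permutation. On simulated data for this comparison (35351 probes), 5.3% of 95 probes changed by 1 and 52.4% of 105 changed by 2 on the log2 scale were recovered, and 4 of 64 calls were false. The simulated probes were drawn independently, without noise shared by the probes of an array. These shares may therefore not carry over to the real arrays. The number of arrays limits the precision, and between 69.4% and 75.4% of spots were well above background.

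Names came from RefSeq accessions in GRCm38.p6 (33762 of 56605 probes, 23458 genes). The files place probes on mm9, whose coordinates were not used. The members and the pathway and marker lists were chosen with earlier results of these data known. The text names all 10 genes, Islr, called pathway genes, up to 3 further genes per list with the largest change, and the 3 probes most alike to each called member; Smad3, Acta2 and Tagln were added after their values were seen. Alternatives concerned scaling, background correction, outlier spots, the filter, weighting, the value table and leaving out each array. Probe and protein sequences were not used here. The values of 1 gene of the target list are not reported here.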

Additional observations from a re-analysis of the deposited data

How the results depend on the processing

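The directions of both Tgfb1 probes, Tgfb3, the brighter Tgfbr1 probe, Ltbp2, the dimmer Tgfb2 probe and the dimmer Inhba probe were kept in every alternative in which they were tested. The call of the brighter Tgfb1 probe held in 9 of 15 alternatives, with adjusted p in limma of 0.0151 to 0.131. That of the brighter Inhba probe, which needs outlier spots kept, held in 4 of 7 (0.0145 to 0.0562). The dimmer Inhba probe, tested through the controls alone, was called in 11 of 14 (0.0060 to 0.0776), which is no support for the brighter one. The brighter Tgfbr1 probe was called in 5 of 15. The count of called member probes was 4 in place of 2 with median centring, quantile normalization, normexp with quantile normalization, outlier spots kept, array weights, trend and robust fitting and the value table, and 1 with no filter on dim probes or with background required on all arrays; 1 array left out gave 0 to 3. The count of called member genes was 1 in place of 2 with no filter, with background required on all arrays, or with the probe of most usable arrays and lowest standard error, and 0 to 2 with 1 array left out. Other pathway genes called numbered 8 with median centring, 9 with normexp, 1 with no filter, 14 with array weights and 7 with trend and robust fitting in place of 4, and 0 to 4 with 1 array left out. Over all probes 1403 were called, against 2249 with median centring, 2185 with quantile normalization, 2768 with normexp, 484 with no filter, 7320 with array weights and 2274 with the value table, and 40 (without knockout replicate 3) to 2114 (without control replicate 1) with 1 array left out. The share of calls that were higher was 39.1%, and 49.7% with array weights; with 1 array left out it ran from 10% (without knockout replicate 3) to 55.1% (without control replicate 1). Islr differed by -2.58 to -2.34 with 1 array left out. With 1 array left out, signs reversed for the brighter Tgfb2 probe (-0.32 to 0.024, the highest without knockout replicate 1), the dimmer Tgfbr1 probe (-0.53 to 0.079) and, with outlier spots kept, Smad7 (-0.49 to 0.32, with -0.34 when knockout replicate 3 was left out). Stricter background removed the dimmer Inhba probe and the dimmer Tgfb1 probe from the test. The causes of the other shifts were not tested. Signal over background limits the dimmer Inhba, Tgfb1 and Smad7 probes, and marked spots limit Tgfbr2, Tgfbr3, Ltbp1, Smad7 and the brighter Inhba probe.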
